A study of Mus musculus with 24 samples.

Results

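The interaction of diet with microbial status asks, gene by gene, whether the difference that fish oil made against lard was the same in mice without microbes as in mice with them. It was computed as the fish oil minus lard difference in germ-free mice minus the same difference in conventional mice, so a negative value means that fish oil lay lower, relative to lard, in germ-free than in conventional mice. All 4 groups of the study enter it, and therefore all 24 of its 24 liver arrays, which were counted as 23 samples. The groups were male C57Bl/6 mice on menhaden fish oil and germ-free (n = 5 after merging), on lard and germ-free (n = 6), on fish oil and conventional (n = 6), and on lard and conventional (n = 6). The diets, each with 45% of energy from fat, lasted 11 weeks and ended in a fast of 4 hours, and the labels give the age as 11 weeks, so the age at sampling is uncertain. Germ-free mice carry no microbes. The labels do not say whether germ-free and conventional mice came from the same stock.

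The liver makes cholesterol from acetyl-CoA through the mevalonate pathway, whose genes are driven together by the SREBP transcription factors when sterol in the endoplasmic reticulum runs low. Long-chain polyunsaturated fatty acids, which fish oil supplies and lard largely lacks, are known to restrain SREBP activity in liver. Gut microbes reach the same pathway because they deconjugate and modify bile acids, the end products of cholesterol, and so change how much sterol returns to the liver.

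Signals are log2 values, in which a difference of 1 is a doubling, and a gene was called when its adjusted p from limma was under 0.05. Fish oil germ-free arrays 3 and 4 were nearly identical: over the 300 most variable genes their difference had an SD of 0.12, against 0.35 for the next closest of the 60 pairs within groups. They were averaged and counted as 1 mouse. Liver identity was borne out by its markers in every group: the summed signal of 10 hepatocyte genes lay between 16.65 and 16.81 in all mice. The fish oil conventional mice varied most, with a median SD of 0.20 over the better measured genes, against 0.12 in each other group. The clock index, Dbp minus Arntl, ranged from -0.77 to 4.09 in fish oil germ-free, 3.60 to 4.59 in lard germ-free, -2.04 to 3.66 in fish oil conventional and 1.96 to 4.33 in lard conventional mice. With the index as a covariate, all 121 genes called below kept their call, and the number called rose to 283. The fish oil minus lard difference of Dbp itself was -1.44 in germ-free and -1.90 in conventional mice (adjusted p = 0.0975 and 0.0819). A role of clock phase was not tested. Nnt, a mitochondrial transhydrogenase gene known to differ between C57BL/6 substrains, had medians of 9.84 in fish oil germ-free, 10.14 in lard germ-free, 11.14 in fish oil conventional and 11.42 in lard conventional mice, and the highest germ-free mouse (10.23) lay below the lowest conventional one (10.80). Its interaction was -0.00 ± 0.10, and a difference of stock cannot be told apart from microbial status in any comparison of germ-free with conventional mice.

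The diet effect depended on microbial status for 121 of 19938 genes (0.607%). In 78 of them (0.391% of genes tested) the interaction was negative and in 43 (0.216%) positive. With array medians made equal the split turned round, with 39 negative and 127 positive. The germ-free mice carried most of it: 117 of the 121 genes had the larger diet difference in germ-free mice, and 4 in conventional mice, where 56% of all genes had it in germ-free mice. The median size of the diet difference over the 121 genes was 0.64 in germ-free and 0.12 in conventional mice, against 0.10 and 0.09 over all genes tested. The same contrast chose the 121 genes, so these medians describe them and test nothing. The diet difference itself was called for 2625 genes (13.2%) in germ-free and 161 (0.808%) in conventional mice, and 118 and 4 of the 121 were among them. A gene that was not called may still differ. The medians over all genes (0.10 and 0.09) lay much closer together than these counts.

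**Figure D1:**
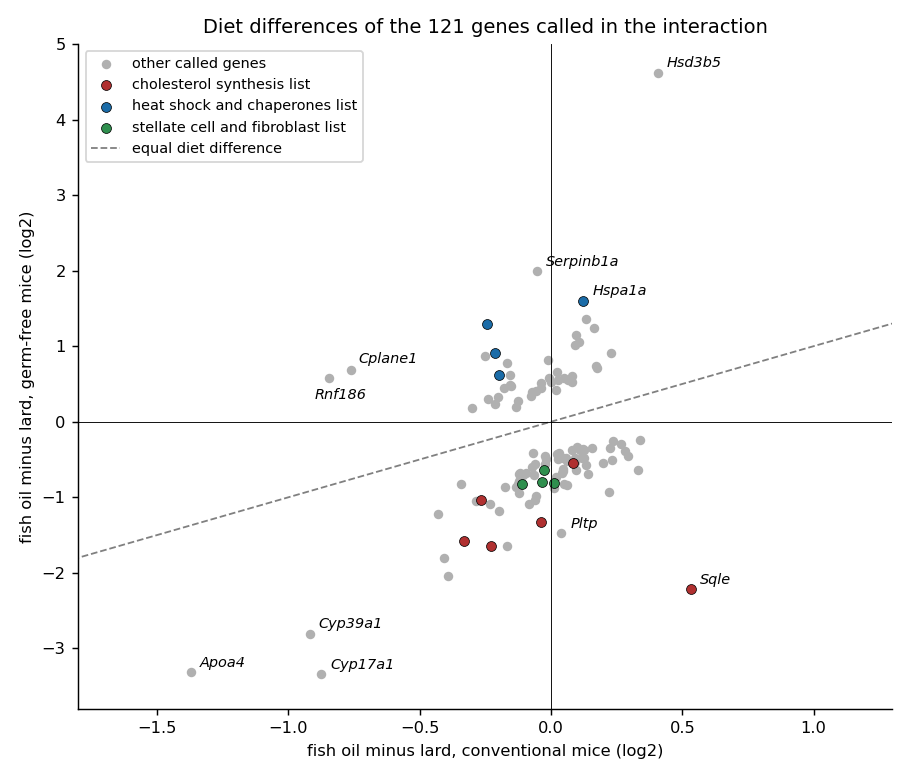
Fish oil minus lard difference of the 121 called genes on the log2 scale, in germ-free mice on the vertical axis against conventional mice on the horizontal axis, with colours for 3 gene lists and a dashed line where both differences are equal. Most points lie near 0 on the horizontal axis and far from 0 on the vertical axis, with Hsd3b5 highest at 4.62 in germ-free mice and Sqle at -2.22.

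Which group stood apart was read from the 4 group means: the highest or lowest group was said to stand apart when its gap to the nearest other mean was over 0.5 of the whole range. Among the 121 genes it was the fish oil germ-free mice for 48 genes (39.7%, against 17.1% of all genes) and the lard germ-free mice for 45 (37.2%, against 12.6%). The fish oil germ-free mice were the high group for 31 of the 121 (25.6%, against 7.97% of all genes) and the low group for 17 (14%, against 9.13%). The lard germ-free mice were the high group for 41 (33.9%, against 5.82%) and the low group for 4 (3.31%, against 6.81%). A conventional group stood apart for 2 genes, 1 on each diet (0.826% each), against 15.9% of all genes for fish oil and 6.34% for lard conventional mice. No group stood apart for the other 26 genes (21.5%).

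The number of called genes depended heavily on single mice. The adjusted p of 58 of the 121 genes was 0.04 or more, and 22 genes were called whichever mouse was left out. The count was 117, 95 and 132 without fish oil conventional mice 1, 2 and 5, and 123 and 152 without lard conventional mice 5 and 6. It was 73, 35 and 206 without fish oil conventional mice 3, 4 and 6, and 44, 25, 67 and 40 without lard conventional mice 1 to 4. Among germ-free mice it was 41, 63, 49, 38 and 44 without fish oil mice 1, 2, 3 (the merged arrays), 5 and 6, and 24, 39, 31, 29, 68 and 233 without lard mice 1 to 6. All 121 genes kept the sign of their interaction in each of these fits. Their choice by this same contrast made that nearly certain, so the kept sign tests nothing.

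Of 17 cholesterol synthesis genes measured, 6 were called, all with a negative interaction (0.391% of all genes), and 11 did not pass. The count was 4 with equal array medians. At an unadjusted p under 0.05 there were 13 negative and 0 positive, against 6.96% and 5.21% of all genes. The median interaction of the list was -0.95, against -0.02 for all genes, and it stayed between -1.30 and -0.82 in 39 other settings. In germ-free mice 14 of the 17 genes were called lower on fish oil (8.59% of all genes) with a list median of -0.91. In conventional mice 0 of the 17 were called (0.808% of all genes in either direction), and the list median was -0.13. Among mice fed lard, the germ-free animals had a list median 0.79 above that of the conventional ones, and among mice fed fish oil the median difference was -0.08.

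Sqle, squalene epoxidase, which puts oxygen on squalene in a rate-limiting step, had the strongest negative interaction of any called gene. Its signal was 8.16, 7.09, 7.59, 8.03 and 7.37 in the fish oil germ-free mice, 8.52 to 10.79 (median 9.91) in the lard germ-free mice, 6.98 to 9.13 (median 7.36) in the fish oil conventional mice and 6.53 to 7.62 (median 7.02) in the lard conventional mice. Every lard germ-free mouse lay above every fish oil germ-free and every lard conventional mouse, and 1 fish oil conventional mouse, number 6, reached into the lard germ-free range. Fish oil was 4.66-fold lower than lard in germ-free mice (-2.22 ± 0.35, adjusted p = 0.000186). In conventional mice the difference was 0.53 ± 0.34 (adjusted p = 0.439), and the interaction was -2.75 ± 0.49 (adjusted p = 0.0117). Sqle was called in each of the 23 fits that left out 1 mouse.

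For Lss and Msmo1, which act after squalene, the lard germ-free mice again had the highest mean, and the fish oil germ-free mice had the lowest. Lss, which closes squalene epoxide into lanosterol, was 8.91, 8.61, 8.47, 8.33 and 8.30 in fish oil germ-free mice, 9.27 to 10.63 (median 10.11) in lard germ-free mice, 8.37 to 9.45 (median 8.71) in fish oil conventional and 8.70 to 9.32 (median 9.21) in lard conventional mice. Msmo1, which removes methyl groups from the sterol ring, was 10.38, 9.92, 9.47, 10.33 and 9.76 in fish oil germ-free mice, 11.20 to 11.97 (median 11.64) in lard germ-free mice, 9.30 to 10.89 (median 10.25) in fish oil conventional and 10.06 to 10.77 (median 10.45) in lard conventional mice. For Msmo1 all 6 lard germ-free mice lay above all other mice, while for Lss the lowest of them overlapped the conventional mice. The interaction was -1.25 ± 0.27 for Lss (adjusted p = 0.0371) and -1.41 ± 0.30 for Msmo1 (adjusted p = 0.0363).

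Dhcr7, the last reductase before cholesterol, was 9.55, 9.30, 8.74, 9.32 and 9.16 in fish oil germ-free mice, 9.71 to 11.11 (median 10.66) in lard germ-free mice, 9.35 to 10.03 (median 9.66) in fish oil conventional and 9.37 to 10.11 (median 9.74) in lard conventional mice. All lard germ-free mice again lay above all fish oil germ-free mice, and the conventional groups overlapped each other. Its diet difference was -1.33 ± 0.19 in germ-free mice (adjusted p = 8.76e-05) and -0.04 ± 0.19 in conventional mice (adjusted p = 0.94). The interaction was -1.29 ± 0.27 (adjusted p = 0.0326). Hsd17b7, a sterol ketoreductase, and Mvk, mevalonate kinase at the start of the pathway, had smaller interactions of -0.78 ± 0.18 (adjusted p = 0.049) and -0.63 ± 0.14 (adjusted p = 0.038). For both, every lard germ-free mouse lay above every fish oil germ-free mouse. In the 23 fits that left out 1 mouse, Dhcr7 was called in 13, Msmo1 in 12, Lss in 9, Mvk in 8 and Hsd17b7 in 3.

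**Figure D2:**
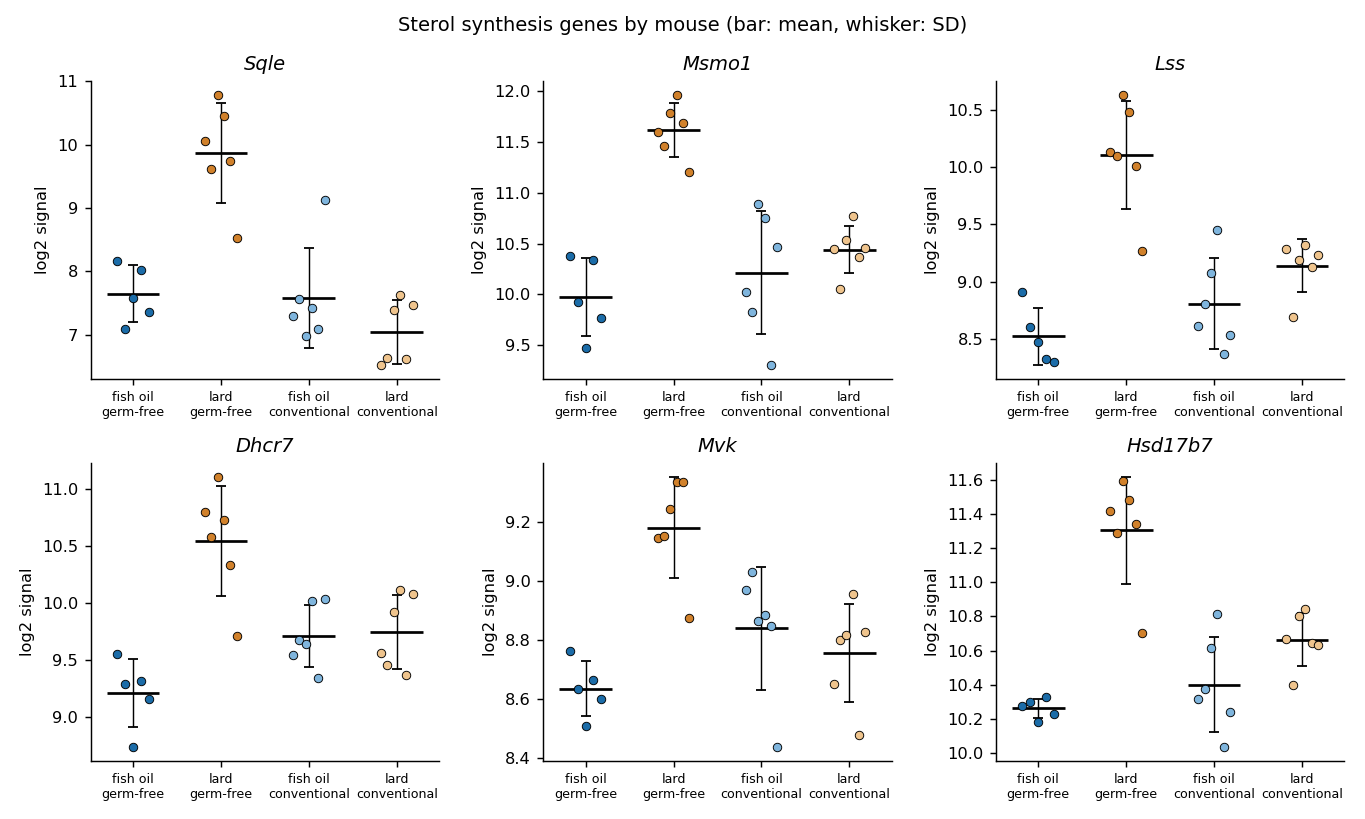
Log2 signal of 6 sterol synthesis genes in each mouse, with 1 point per mouse (fish oil germ-free arrays 3 and 4 as 1 point), a bar at the group mean and a whisker of 1 SD. In every panel the lard germ-free mice have the highest mean, and their lowest point is mouse 6, as for Sqle at 8.52.

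The other 11 sterol enzymes did not pass. Fdps, which makes farnesyl diphosphate, had an interaction of -1.28 ± 0.32 (adjusted p = 0.0632), Idi1 -1.29 (0.115), Nsdhl -1.05 (0.0719), Mvd -1.0 (0.0868), Pmvk -0.95 (0.164), Cyp51 -0.94 (0.174) and Hmgcs1 -0.78 (0.258). Fdft1 (-0.52), Sc5d (-0.34), Tm7sf2 (-0.01) and Ebp (0.19) were nearer 0. Of 12 genes of SREBP regulation and sterol uptake 0 were called, also at an unadjusted p under 0.05 (12.2% of all genes), and their median was -0.02. The count of 6 sterol genes rested on single mice: it lay between 1 and 10 when each mouse was left out, at 1 without lard germ-free mice 1 to 4, fish oil germ-free mouse 3 or 6, fish oil conventional mouse 4 or lard conventional mouse 1 or 2, and at 10 without lard germ-free mouse 6. It was 2 without fish oil germ-free mouse 2 or 5, and 3 without fish oil conventional mouse 3 or lard germ-free mouse 5.

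Heat shock genes showed the opposite sign, and here the fish oil germ-free mice stood apart. Heat shock proteins are chaperones that refold proteins, and their genes are driven together by heat shock factor during protein stress. Of 19 genes measured 4 were called, all with a positive interaction (0.216% of all genes), and 15 did not pass. At an unadjusted p under 0.05 there were 7 positive and 0 negative, against 5.21% and 6.96% of all genes. The list median was 0.32, and between 0.22 and 0.40 in 39 other settings. In germ-free mice 8 genes were called higher on fish oil (4.58% of all genes), and in conventional mice 0 (0.808% of all genes in either direction). The summed signal of the list was 15.44 to 15.71 in fish oil germ-free mice, above all mice of the lard germ-free (15.18 to 15.25), fish oil conventional (14.92 to 15.24) and lard conventional (14.96 to 15.22) groups.

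The promoters of Hspa1a and Bag3 are shown because they hold the core letters of a heat shock element, GAANNTTC, which reads the same on both strands and is in capitals. They are RefSeq windows on GRCm38.p6, from 250 bases before to 50 after the start, at chr17:34972107-34972406 on the minus strand and chr7:128523333-128523632 on the plus strand.
Hspa1a: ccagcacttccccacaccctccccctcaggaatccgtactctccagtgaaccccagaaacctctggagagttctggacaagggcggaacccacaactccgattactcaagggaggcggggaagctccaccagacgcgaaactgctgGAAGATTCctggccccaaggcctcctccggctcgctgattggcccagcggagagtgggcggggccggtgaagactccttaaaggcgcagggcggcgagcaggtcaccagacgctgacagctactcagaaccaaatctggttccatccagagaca
Bag3: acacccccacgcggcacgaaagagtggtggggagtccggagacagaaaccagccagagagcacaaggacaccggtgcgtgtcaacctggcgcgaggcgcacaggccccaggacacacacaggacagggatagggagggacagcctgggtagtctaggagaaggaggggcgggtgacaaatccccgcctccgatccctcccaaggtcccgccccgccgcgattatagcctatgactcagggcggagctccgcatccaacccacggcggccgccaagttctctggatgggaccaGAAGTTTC
These letters were chosen after the values were seen. They occurred in a window of 2 of the 4 called genes, and of 9 of the 16 list genes with a window, against 9.04% of all genes. The match of Bag3 begins 42 bases after the start. Hspd1 and Hspe1 lie on opposite strands with overlapping windows, and the same site was counted for both. The list was made of heat shock genes, so its share of matches says nothing about the interaction. A search for the sterol response element letters TCACNCCAC on both strands found a match in 1 of 14 cholesterol synthesis genes, Hmgcs1, and in 0 of the 5 called ones with a window, against 1.44% of all genes.

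Hspa1a, the stress-inducible HSP70 chaperone, was 9.50, 8.63, 8.83, 8.28 and 8.30 in fish oil germ-free mice, 6.93 to 7.54 (median 7.02) in lard germ-free mice, 6.47 to 6.87 (median 6.71) in fish oil conventional and 6.45 to 6.80 (median 6.50) in lard conventional mice. Every fish oil germ-free mouse lay above every other mouse. Fish oil was 3.04-fold higher than lard in germ-free mice (1.60 ± 0.15, adjusted p = 1.09e-06) and 1.09-fold higher in conventional mice (0.12 ± 0.15, adjusted p = 0.698). The interaction was 1.48 ± 0.21, with an adjusted p of 0.00347, the smallest of all genes and shared with Cav1, P4ha1, Pls1 and Blnk. Hspa1b is nearly identical in sequence to Hspa1a, and their RNAs may not be separated by this probe set.

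Dnajb1, a co-chaperone that hands clients to HSP70, was 10.01, 9.68, 11.22, 9.60 and 9.72 in fish oil germ-free mice, 8.72 to 8.78 (median 8.76) in lard germ-free mice, 7.75 to 8.49 (median 8.01) in fish oil conventional and 8.17 to 8.50 (median 8.31) in lard conventional mice. Bag3, a co-chaperone of HSP70 in selective autophagy, was 10.87, 10.83, 11.31, 10.81 and 11.13 in fish oil germ-free mice, 9.76 to 10.34 (median 10.06) in lard germ-free mice, 9.00 to 10.30 (median 9.53) in fish oil conventional and 9.52 to 10.08 (median 9.76) in lard conventional mice. For both genes no fish oil germ-free mouse overlapped any other group. The interaction was 1.53 ± 0.26 for Dnajb1 (adjusted p = 0.00905), 1.12 ± 0.21 for Bag3 (0.0216) and 0.81 ± 0.14 for Dnajb4, another DnaJ co-chaperone (0.00907).

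**Figure D3:**
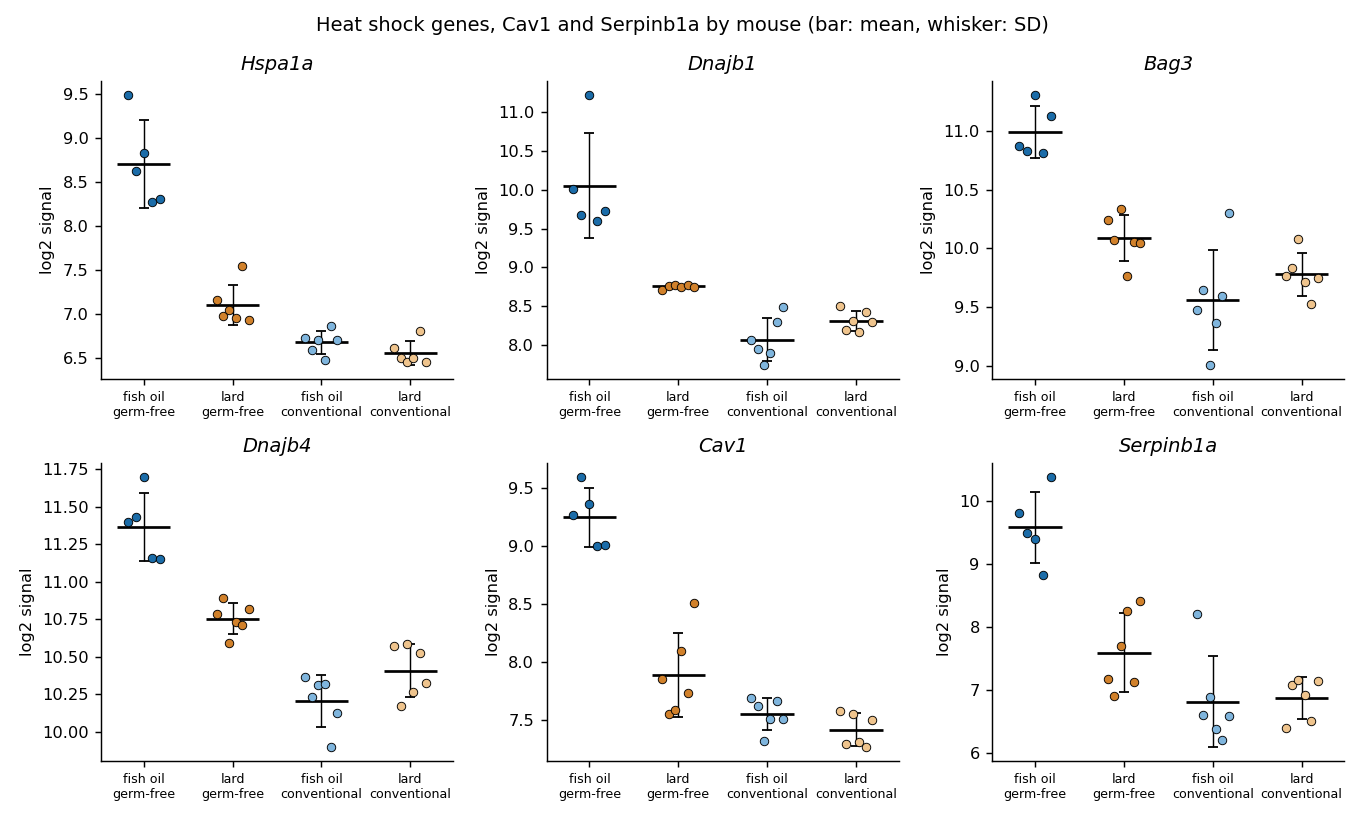
Log2 signal of 4 heat shock genes, Cav1 and Serpinb1a in each mouse, with 1 point per mouse (fish oil germ-free arrays 3 and 4 as 1 point), a bar at the group mean and a whisker of 1 SD. The fish oil germ-free mice lie above every other mouse in all 6 panels, as for Hspa1a at 8.28 or more against 7.54 or less.

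All 4 heat shock genes were called in each of the 23 fits that left out 1 mouse, and the list held 4 or 5 called genes in all of them. Hsph1, an HSP110 chaperone, had an interaction of 1.21 ± 0.29 that missed the threshold (adjusted p = 0.0591), as did Hsp90aa1 (0.52, 0.161) and Hspe1 (0.33, 0.364). The constitutive Hspa8 (0.08), mitochondrial Hspd1 (-0.01) and Dnaja1 (-0.01) were near 0. Of 22 endoplasmic reticulum chaperone and unfolded protein response genes 0 were called, with 9 positive at an unadjusted p under 0.05 (5.21% of all genes) and a median of 0.30. Among 21 immediate early and growth arrest genes 0 were called, with 4 positive at an unadjusted p under 0.05 (5.21% of all genes) and a median of 0.32.

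Cav1 and 3 other genes named for a positive interaction were also high in fish oil germ-free mice. Cav1, the scaffold protein of caveolae, was 9.27, 9.60, 9.36, 9.00 and 9.01 in fish oil germ-free mice, 7.55 to 8.51 (median 7.79) in lard germ-free mice, 7.32 to 7.69 (median 7.56) in fish oil conventional and 7.26 to 7.58 (median 7.40) in lard conventional mice, and its interaction was 1.23 ± 0.19 (adjusted p = 0.00347). Serpinb1a, an inhibitor of neutrophil serine proteases, was 9.81, 9.49, 9.40, 8.83 and 10.39 in fish oil germ-free mice, 6.91 to 8.41 (median 7.44) in lard germ-free mice, 6.20 to 8.22 (median 6.60) in fish oil conventional and 6.40 to 7.16 (median 7.0) in lard conventional mice. Fish oil germ-free mice did not overlap the others in either gene. The Serpinb1a interaction was 2.04 ± 0.43 (adjusted p = 0.0363), and the call held in 12 of the 23 fits that left out 1 mouse. Trp53inp1, a stress-induced autophagy protein (1.12 ± 0.23, adjusted p = 0.0284), and Mbd1, a reader of methylated DNA (1.07 ± 0.25, 0.049), completed this group, with calls in 14 and 6 of those fits.

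Collagen genes were high in the lard germ-free mice. They are expressed in liver mainly by stellate cells and fibroblasts. Of 20 stellate cell and fibroblast markers 4 were called, all with a negative interaction (0.391% of all genes). At an unadjusted p under 0.05 there were 10 negative and 0 positive, against 6.96% and 5.21% of all genes. The list median was -0.34, and between -0.45 and -0.25 in 39 other settings. In germ-free mice 11 of the 20 were called lower on fish oil (8.59% of all genes), and in conventional mice 0 (0.602% of all genes). In bulk liver, fewer cells of a type and less RNA per cell cannot be told apart.

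Col1a2, a chain of type I collagen, was 7.91, 7.86, 7.84, 7.90 and 7.92 in fish oil germ-free mice, 8.56 to 8.92 (median 8.70) in lard germ-free mice, 7.90 to 8.09 (median 7.98) in fish oil conventional and 7.75 to 8.48 (median 8.06) in lard conventional mice. Col1a1, the other chain, was 7.99, 8.09, 7.94, 8.03 and 8.15 in fish oil germ-free mice, 8.64 to 9.11 (median 8.83) in lard germ-free mice, 7.90 to 8.38 (median 8.19) in fish oil conventional and 7.99 to 8.55 (median 8.08) in lard conventional mice. In both genes, and in Col3a1 of type III collagen, every lard germ-free mouse lay above every other mouse. The interaction was -0.71 ± 0.13 for Col1a2 (adjusted p = 0.0161), -0.76 ± 0.15 for Col1a1 (0.0257) and -0.61 ± 0.12 for Col3a1 (0.0249). Fish oil was 1.77-fold, 1.74-fold and 1.56-fold lower than lard in germ-free mice for these genes, with conventional differences of -0.11, -0.03 and -0.03.

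Pdgfrb, the platelet-derived growth factor receptor of stellate cells and pericytes, was 8.08, 8.20, 8.25, 7.87 and 7.72 in fish oil germ-free mice, 8.60 to 9.13 (median 8.82) in lard germ-free mice, 8.31 to 8.83 (median 8.57) in fish oil conventional and 8.18 to 8.82 (median 8.60) in lard conventional mice. Here the fish oil germ-free mice were the low group, with some overlap with lard conventional mice, and the interaction was -0.82 ± 0.17 (adjusted p = 0.0284). The contractile markers Acta2 (-0.26, adjusted p = 0.813) and Tagln (-0.14, 0.877), and the quiescence marker Lrat (-0.57, 0.306), did not pass. The list's summed signal was 13.44 to 13.53 in fish oil germ-free mice, 13.80 to 14.01 in lard germ-free mice, 13.28 to 13.95 in fish oil conventional and 13.65 to 13.92 in lard conventional mice. The list's count lay between 1 and 5 when each mouse was left out, and was 1 without lard germ-free mouse 1 or lard conventional mouse 2. Col1a2 was called in 23, Col1a1 and Col3a1 in 21 and Pdgfrb in 16 of those fits.

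**Figure D4:**
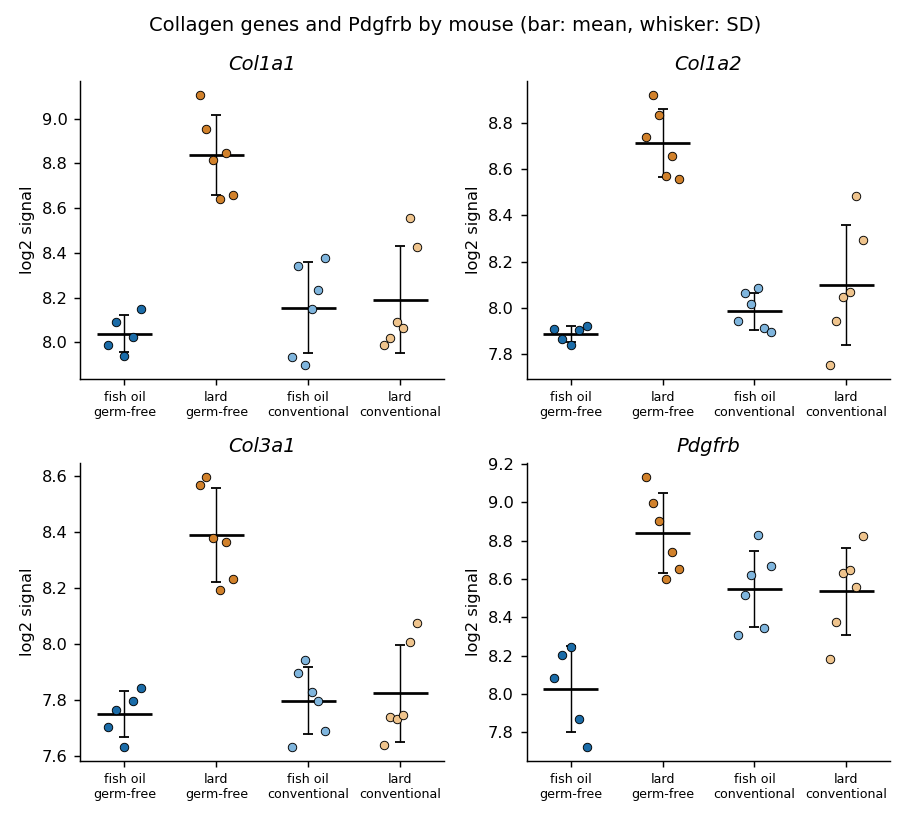
Log2 signal of Col1a1, Col1a2, Col3a1 and Pdgfrb in each mouse, with 1 point per mouse (fish oil germ-free arrays 3 and 4 as 1 point), a bar at the group mean and a whisker of 1 SD. The lard germ-free mice lie above all others for the 3 collagen genes, and the fish oil germ-free mice are lowest for Pdgfrb.

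Further matrix genes among the 121, picked out after their values were seen, had the same sign. They include Fbln5, an elastic fibre protein (-0.77 ± 0.17, adjusted p = 0.0416), Pcolce, which enhances procollagen processing (-0.70, 0.0301), Col6a3 (-0.58, 0.0366) and Col6a1 (-0.53, 0.0412) of type VI collagen, Loxl1, a matrix crosslinking enzyme (-0.58, 0.049), the proteoglycan Bgn (-0.44, 0.049) and the metalloproteinase inhibitor Timp2 (-0.73, 0.038). P4ha1, the prolyl hydroxylase subunit needed for stable collagen, had the opposite sign (0.95 ± 0.14, adjusted p = 0.00347). Its signal was 9.41, 9.57, 9.40, 9.54 and 9.57 in fish oil germ-free mice, against 8.64 or less in every other mouse.

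Few markers of other cell types were called. Of 9 cholangiocyte markers 2 were called, both with a negative interaction (0.391% of all genes). They were the bile duct keratin Krt19 (-0.50 ± 0.11, adjusted p = 0.0383) and the mucin Muc1 (-0.59 ± 0.14, 0.049). The count was 0 to 3 when each mouse was left out. All 9 markers had a negative interaction, 5 of them at an unadjusted p under 0.05 (6.96% of all genes), and the list median was -0.34. The cholangiocyte markers' summed signal was 10.23 to 10.59 in fish oil germ-free mice, 10.38 to 10.70 in lard germ-free mice, 10.18 to 11.23 in fish oil conventional and 10.35 to 10.59 in lard conventional mice, so the groups overlapped. Of 20 Kupffer cell and macrophage markers 1 was called, with a negative interaction (0.391% of all genes). It was the chemokine receptor Cx3cr1 (-0.44 ± 0.09, adjusted p = 0.0326). At an unadjusted p under 0.05 the macrophage list had 5 negative and 0 positive (6.96% and 5.21% of all genes), and its median was -0.23. Vsig4, a Kupffer cell complement receptor, had an interaction of -0.22 (adjusted p = 0.765). Of 17 T cell, NK cell and B cell markers 1 was called, with a positive interaction (0.216% of all genes). It was Jchain of plasma cells (0.59 ± 0.14, adjusted p = 0.049), called in 5 of the 23 fits that left out 1 mouse. The group means of Jchain, 4.92 to 5.92, lay below the median level of all genes (7.01). None of 18 endothelial, 15 neutrophil, 10 hepatocyte, 9 pancreas and adipose or 2 red blood cell markers was called. At an unadjusted p under 0.05 the endothelial list had 6 negative and 0 positive (6.96% and 5.21% of all genes), and its median was -0.27.

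Genes whose liver expression differs between the sexes held some of the widest interactions, in these male mice. Hsd3b5, a steroid ketoreductase of male mouse liver, was 12.34, 12.22, 12.34, 12.40 and 12.17 in fish oil germ-free mice, 6.12 to 11.20 (median 6.78) in lard germ-free mice, 11.51 to 12.54 (median 12.13) in fish oil conventional and 10.54 to 12.28 (median 11.96) in lard conventional mice. The lard germ-free mice were low but far apart from each other, with mouse 6 at 11.20 inside the range of lard conventional mice. Fish oil was 24.6-fold higher than lard in germ-free mice (4.62 ± 0.59, adjusted p = 2.47e-05), the conventional difference was 0.41 ± 0.56, and the interaction was 4.21 ± 0.81 (adjusted p = 0.022). It was called in 21 of the 23 fits that left out 1 mouse.

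Hsd3b5 was the only called gene of 19 male-biased ones, with a positive interaction (0.216% of all genes). At an unadjusted p under 0.05 there were 6 positive and 0 negative (5.21% and 6.96% of all genes), and the list median was 0.34. Slco1a1, an organic anion transporter of male liver, was 12.18, 12.04, 12.11, 12.20 and 11.96 in fish oil germ-free mice, 9.59 to 11.88 (median 10.38) in lard germ-free mice, 11.68 to 12.71 (median 12.11) in fish oil conventional and 11.52 to 12.28 in lard conventional mice. Its lard germ-free mice were again low and widely spread, and its interaction of 1.40 ± 0.36 missed the threshold (adjusted p = 0.0685).

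Of 16 female-biased genes 2 were called, Cyp17a1 and Cyp39a1, both with a negative interaction (0.391% of all genes), with a list median of -0.17. At an unadjusted p under 0.05 the list had 3 negative and 0 positive (6.96% and 5.21% of all genes). Cyp17a1, a hydroxylase of steroid hormone synthesis, was 7.34, 7.67, 7.26, 7.53 and 7.07 in fish oil germ-free mice, 9.39 to 11.69 (median 10.84) in lard germ-free mice, 7.07 to 9.82 (median 9.14) in fish oil conventional and 9.06 to 9.99 (median 9.63) in lard conventional mice. The fish oil conventional mice split, with mice 1 and 2 at 7.33 and 7.07 among the fish oil germ-free values and the other 4 at 8.74 or above. Cyp39a1, an oxysterol hydroxylase of bile acid synthesis, was 6.81, 6.78, 6.66, 6.29 and 6.29 in fish oil germ-free mice, 8.88 to 10.09 (median 9.33) in lard germ-free mice, 6.96 to 9.59 (median 8.22) in fish oil conventional and 8.95 to 9.46 (median 9.19) in lard conventional mice. Every fish oil germ-free mouse lay below every other mouse for Cyp39a1. The interaction was -2.47 ± 0.56 for Cyp17a1 (adjusted p = 0.0467) and -1.89 ± 0.43 for Cyp39a1 (0.0485), and the calls held in 5 and 6 of the 23 fits that left out 1 mouse.

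Among 15 lipoprotein genes 2 were called, Apoa4 and Pltp, both with a negative interaction (0.391% of all genes), and the list median was 0.02. Apoa4, an apolipoprotein of triglyceride-rich particles, was 10.09, 10.22, 10.48, 10.04 and 9.99 in fish oil germ-free mice, 13.10 to 13.80 (median 13.52) in lard germ-free mice, 10.67 to 13.27 (median 11.52) in fish oil conventional and 12.51 to 13.61 (median 13.22) in lard conventional mice. Here diet moved both kinds of mice: fish oil was 9.98-fold lower than lard in germ-free mice (-3.32 ± 0.32, adjusted p = 1.09e-06) and 2.59-fold lower in conventional mice (-1.37 ± 0.31, adjusted p = 0.0386). The interaction was -1.95 ± 0.44 (adjusted p = 0.0467), with a call in 7 of the 23 fits that left out 1 mouse.

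Pltp, which moves phospholipid between lipoproteins, was 9.93, 9.64, 9.60, 9.63 and 9.72 in fish oil germ-free mice, 10.86 to 11.37 (median 11.22) in lard germ-free mice, 9.95 to 11.23 (median 10.50) in fish oil conventional and 9.92 to 10.92 (median 10.39) in lard conventional mice. The germ-free groups bracketed the conventional ones, with fish oil lowest and lard highest. Its diet difference was -1.48 ± 0.19 in germ-free mice (adjusted p = 3.02e-05) and 0.04 ± 0.18 in conventional mice (0.938). The interaction was -1.52 ± 0.27 (adjusted p = 0.011), and the call held in all 23 fits that left out 1 mouse.

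**Figure D5:**
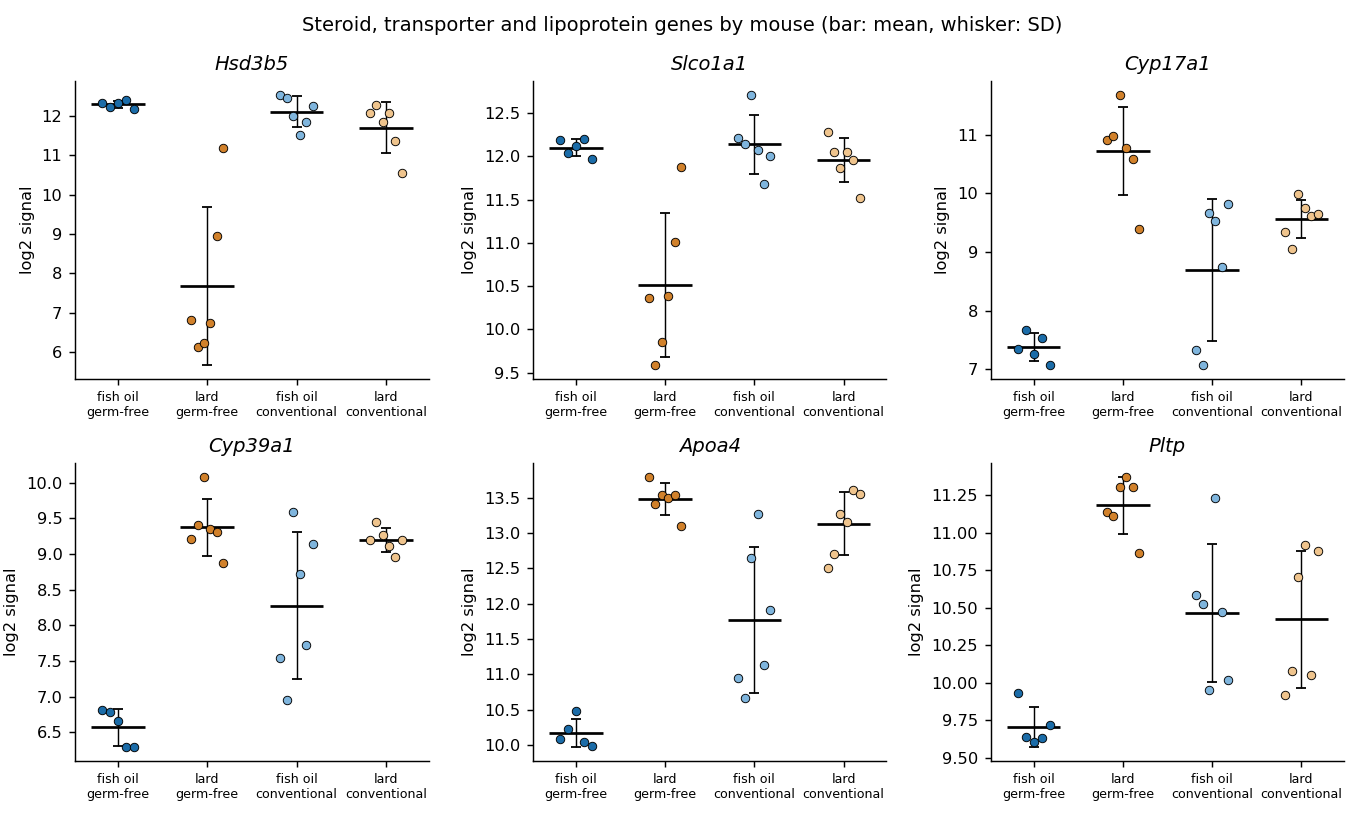
Log2 signal of Hsd3b5, Slco1a1, Cyp17a1, Cyp39a1, Apoa4 and Pltp in each mouse, with 1 point per mouse (fish oil germ-free arrays 3 and 4 as 1 point), a bar at the group mean and a whisker of 1 SD. Lard germ-free mice spread from 6.12 to 11.20 for Hsd3b5, and the fish oil conventional mice spread widely for Cyp17a1, Cyp39a1 and Apoa4.

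Fatty acid synthesis responded to fish oil in germ-free mice, with no gene called in the interaction. Of 20 genes 17 (8.59% of all genes) were called lower on fish oil in germ-free and 4 (0.602% of all genes) in conventional mice, with list medians of -1.38 and -0.76. In the interaction 7 were negative and 0 positive at an unadjusted p under 0.05 (6.96% and 5.21% of all genes), with a median of -0.58. Acacb, the acetyl-CoA carboxylase that controls mitochondrial fatty acid entry, had an interaction of -1.91 ± 0.49 that missed the threshold (adjusted p = 0.0674). Fasn, fatty acid synthase, was lower on fish oil in both kinds of mice (-2.31 ± 0.35, adjusted p = 0.000101, in germ-free and -1.46 ± 0.33, 0.0391, in conventional), with an interaction of -0.85 ± 0.48 (0.501). Thrsp, a lipogenic protein, was likewise called lower in both (-3.67 and -2.73), with an interaction of -0.94 ± 0.82 (0.719). Scd1, stearoyl-CoA desaturase, had an interaction of 0.02 ± 0.68 (0.995), and Mfsd2a, a transporter of lysophospholipids, 0.33 ± 0.84 (0.93). Standard errors of 0.68 to 0.84 limit what could be detected for Thrsp, Scd1 and Mfsd2a.

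Bile acid synthesis had 1 called gene of 14, Cyp39a1, with a negative interaction (0.391% of all genes), and the list median was 0.14. Cyp7a1, the rate-limiting enzyme of the pathway, was 12.25, 12.53, 11.97, 11.43 and 11.85 in fish oil germ-free mice, 11.57 to 12.40 (median 11.93) in lard germ-free mice, 7.90 to 10.56 (median 8.54) in fish oil conventional and 9.34 to 11.63 (median 10.48) in lard conventional mice. The fish oil conventional mice were the low group and overlapped only lard conventional mice. Its interaction was 1.54 ± 0.55 (adjusted p = 0.22), so a dependence of its diet difference on microbial status was not detectable with these mice.

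Lipid droplet genes held 0 called of 22, with a median of -0.20. Cidea and Cidec, which fuse lipid droplets, had interactions of -1.62 ± 0.98 (adjusted p = 0.544) and -1.71 ± 0.87 (0.437). Cell cycle genes held 0 called of 27, with a median of -0.30. At an unadjusted p under 0.05 the list had 11 negative and 1 positive (6.96% and 5.21% of all genes). Ccnd1, cyclin D1, had an interaction of -1.19 ± 0.29 (adjusted p = 0.0622). Myc, a growth-promoting transcription factor, had 1.20 ± 0.68 (0.507). Cyp4a14, a fatty acid hydroxylase induced by PPAR alpha, had -0.36 ± 0.50 (0.853), and Cpt1a, which admits fatty acids to mitochondria, -0.14 ± 0.15 (0.796). The clock genes Dbp (0.46, 0.884) and Arntl (-0.18, 0.939) and the acute phase gene Saa1 (-1.31 ± 1.0, 0.672) did not pass either.

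In all, 10 of 39 lists held a called gene and 29 held none. Among those 29 lists the median interaction ran from -0.58, in fatty acid synthesis, to 0.32, in the immediate early genes. The lists of peroxisomal oxidation (-0.02), mitochondrial oxidation and ketogenesis (0.06), bile acid transport (0.10), the clock (0.04), gluconeogenesis (0.09), glycolysis (-0.09), xenobiotic P450 genes (0.06), phase II conjugation (0.15), NRF2 (0.08), the ATF4 response (0.06), oxidative phosphorylation (0.08), proteasome (0.02), acute phase (-0.08), interferon response (-0.05), MHC class II (-0.16), complement and coagulation (0.02), iron handling (-0.05) and phospholipids and lipins (-0.18) had no call and medians between -0.18 and 0.15. Some of them still held a larger share of genes at an unadjusted p under 0.05 than all genes did (5.21% positive, 6.96% negative). Gluconeogenesis had 5 positive and 0 negative of 17, and bile acid transport 5 and 2 of 18. Phospholipids and lipins had 2 positive and 5 negative of 17, and acute phase 0 and 5 of 26.

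The remaining genes named by size were spread over functions. Prss8, the membrane protease prostasin (-1.65 ± 0.38, adjusted p = 0.049), was 6.03 to 7.18 in fish oil germ-free and 7.98 to 9.25 in lard germ-free mice, and As3mt, an arsenic methyltransferase (-1.40 ± 0.32, 0.0445), was 8.36 to 9.13 and 10.27 to 10.87 in the same groups. The germ-free groups did not overlap in either gene. Rnf186, a ubiquitin ligase (1.43 ± 0.33, 0.049), and Cplane1, a ciliogenesis gene (1.45 ± 0.30, 0.0326), had diet differences of opposite sign. They were 0.58 and 0.68 in germ-free and -0.85 and -0.76 in conventional mice, and were the largest conventional differences among the positive calls. Cplane1 rests on 1 of its 3 probe sets, the others giving 0.06 and 0.19.

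Of the 22 genes called whichever mouse was left out, the fish oil germ-free mice stood apart for 10 and the lard germ-free mice for 8. The fish oil conventional mice stood apart for 1, and no group for 3. Besides those described, and picked after their values were seen, these were in the lard germ-free set Pls1, an actin bundling protein (-1.48 ± 0.23, adjusted p = 0.00347), the B cell adaptor Blnk (-0.98 ± 0.15, 0.00347), Aldoc, an aldolase (-1.15 ± 0.19, 0.00534), Scara3, a scavenger receptor (-0.89 ± 0.14, 0.00476), the annexin Anxa8 (-0.70 ± 0.12, 0.011), and Nebl, a nebulin-related actin binding protein (-0.50, 0.0216). Pls1, Blnk, Scara3, Anxa8 and Nebl had mean levels of 6.70, 6.13, 6.97, 6.15 and 5.85, below the median level of all genes (7.01). Pls1 was 6.06 to 6.47 in fish oil germ-free mice, 7.23 to 8.32 in lard germ-free mice, 6.06 to 6.64 in fish oil conventional and 6.19 to 6.82 in lard conventional mice, so the lard germ-free mice did not overlap the rest. In the fish oil germ-free set were Pgap1, which remodels lipid-anchored proteins (0.77 ± 0.13, 0.00753), and Traf6, a ubiquitin ligase of innate immune signalling (0.52 ± 0.10, 0.022). Pyroxd2 (-0.90, adjusted p = 0.0216) and Jade2 (-0.74, 0.022) were the 2 in which the fish oil germ-free mice stood apart as low.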

How the data were processed

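Liver RNA of 24 mice was read on Affymetrix gene arrays (250 ng of RNA per labelling). The deposited values are log2 signals made by the authors with RMA (background correction, quantile normalization and median polish), per the file headers (genome build: not given in the sources used here). Quantile normalization hides a change shared by most genes. An array has no read depth, and precision is limited by how many mice there are.

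Of 35556 probe sets, 21789 had 1 gene symbol in the platform annotation, 1621 several and 12146 none listed. For genes with several probe sets (999) the one with the highest mean was used, leaving 19938 genes with no filter on level. Fish oil germ-free arrays 3 and 4 were averaged. Limma 3.58.1 in R 4.3.3 (lmFit on 4 group means, contrasts, eBayes) gave two-sided p-values, adjusted by Benjamini-Hochberg over all genes. Values after ± are standard errors. P-values measure the spread among these mice; nothing in the labels speaks of litters or cages.

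On simulated data with 19938 genes the interaction fit recovered 48% of changes of 0.5 and 96% of changes of 1 (log2), with 15 false of 187 calls. The simulated noise was independent and normal, with the same SD for a gene in all groups. The fish oil conventional mice had a median SD of 0.20, against 0.12 in each other group, so these rates may not hold for the real data. The gene lists, the rule for named genes and the comparison itself were chosen with earlier results of these data known. The rule took the 10 called genes with the most positive and 10 with the most negative interaction among those above the median level, up to 3 called genes of each of 39 lists, and 25 fixed genes, of which those without a value are not reported here. Alternatives covered the filter, probe sets, normalization, variance model, array weights, a fold threshold, the other deposited table, arrays 3 and 4, a replicate block, covariates and mice left out. Mouse numbers showed no general pairing: over 33 pairs with the same number, deviations from group means correlated from -0.30 to 0.33 (median -0.01). In 10 of these pairs the correlation was over 0.1, and 3 of 23 samples had their best match in other groups under their own number.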

Additional observations from a re-analysis of the deposited data

Results flagged for a closer look

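The difference between the diet effects of germ-free and conventional mice was itself tested, and 121 genes passed, as described above. Among 196 groups of mice of the named genes, 13 held a mouse far from the others of its group, where chance alone gives about 1 in 20. In fish oil germ-free mice, Dnajb1 was 11.22 in mouse 3, the merged arrays, against 9.60 to 10.01 in the others, Trp53inp1 was 10.76 in mouse 6 against 11.65 to 12.01, and Vsig4 was 9.88 in mouse 1 against 10.23 to 10.35. In lard germ-free mice, Hsd17b7 was 10.70 in mouse 6 against 11.29 to 11.59. In fish oil conventional mice, Sqle was 9.13 in mouse 6 against 6.98 to 7.56, Mvk was 8.44 in mouse 6 against 8.85 to 9.03, Prss8 was 8.48 in mouse 4 against 6.44 to 7.20, Cidea was 9.78 in mouse 4 against 5.31 to 6.15, and Serpinb1a was 8.22 in mouse 1 against 6.20 to 6.89. In lard conventional mice, Lss was 8.70 in mouse 2 against 9.13 to 9.32, Fasn was 11.74 in mouse 2 against 12.51 to 12.81, Cplane1 was 7.94 in mouse 1 against 8.66 to 8.97, and Cyp4a14 was 9.48 in mouse 1 against 12.06 to 12.82.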

How the results depend on the processing

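The 121 interaction genes kept their sign in every setting that gave them a value, which their choice by the same contrast made nearly certain. The number called moved. It was 108 with only genes above the median level, 124 with probe sets of a gene averaged, 90 after a second quantile normalization, and 105 or 85 with array 3 or 4 alone. It was 30 with all probe sets, 79 with a trended and robust variance model, 260 with array weights and 209 with 24 separate arrays. With a limma test against a fold of 1.5 it was 0, with 56 genes at an unadjusted p under 0.05. With a covariate, the clock index or the array's 75th percentile, it was 283 and 336, and without fish oil conventional mice 5 and 6 it was 457. Without mice 5 and 6 of both germ-free groups it was 124 (91 negative, 33 positive), of which 67 were among the 121. The array's 75th percentile was 8.75 to 8.79 in those germ-free mice and 8.87 to 8.92 in the other germ-free samples. The share of positive interactions was 35.5%, but 46.3% above the median level, 76.5% with equal array medians (166 genes), 22.9% with the 75th percentile and 47% without fish oil conventional mice 5 and 6. Leaving out 1 mouse gave 24 to 233 genes. The replicate block by mouse number gave 40, of which 37 were among the 121, with 2 cholesterol synthesis, 4 heat shock and 3 stellate cell genes. Of 1957 results of single named genes in other settings, 1534 kept their side of the threshold, 403 lost and 20 gained a call. The 1957 include genes not called in the main fit, such as Scd1, Nnt and Dbp, which cannot lose a call. The 403 losses therefore fall on the called genes alone. The causes were not tested.

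The share of called genes for which fish oil germ-free mice stood apart was 22.3% with a gap over 0.67 of the range, 54.2% with equal array medians, 52.5% without fish oil conventional mice 5 and 6, and 32.2% to 56% when 1 mouse was left out. For lard germ-free mice it was 23.1% with that gap, 21.1% with equal array medians, 21.7% without fish oil conventional mice 5 and 6, and 30.1% to 53.7% when 1 mouse was left out. For fish oil conventional mice it was 1.65% with a gap over 0.33, 0% with the wider gap or above the median level, 3.01% with equal medians, 5.03% without mice 5 and 6, and 0% to 6.84% when 1 mouse was left out. For lard conventional mice it was 0% with the wider gap or equal medians, 0.219% without fish oil conventional mice 5 and 6, and 0% to 2.86% when 1 mouse was left out. The settings for these shares that left out mice or equalled medians were chosen after seeing the data.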
